A study of Mus musculus with 8 samples.

Results

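The 9 genes described here encode the main protein chains of the epithelial basement membrane as they were measured in cultured mouse pancreatic cancer cells. They are Hspg2, which encodes perlecan, the laminin chain genes Lama3, Lama5, Lamb1, Lamb2, Lamb3 and Lamc1, and the collagen IV chain genes Col4a1 and Col4a2. They were taken by name from a table of 42687 genes, and all 9 were among the 15197 genes with enough counts to be tested. In the table they stand as ENSMUSG00000028763 (Hspg2), ENSMUSG00000024421 (Lama3), ENSMUSG00000015647 (Lama5), ENSMUSG00000002900 (Lamb1), ENSMUSG00000052911 (Lamb2), ENSMUSG00000026639 (Lamb3), ENSMUSG00000026478 (Lamc1), ENSMUSG00000031502 (Col4a1) and ENSMUSG00000031503 (Col4a2). RNA was sequenced from cultured cells in 8 libraries, 2 in each of 4 groups. The groups were cells exposed to DNase-pretreated ATEVs at 15 µg/mL, to ATEVs at 15 µg/mL, to NTEVs at 30 µg/mL, or to PBS. NTEVs are extracellular vesicles (EVs, small membrane-bound particles shed by cells) of T cells that had not been activated, and ATEVs are taken, from the contrast of the names, to be EVs of activated T cells. The ATEV and NTEV doses are read as each holding 5 µg/mL of vesicle DNA, and the pretreatment used the nuclease Baseline-ZERO, which digests DNA. Cells were harvested and reseeded the day after exposure, and the cycle was carried out 8 times. All groups share 1 poorly immunogenic tumour cell clone isolated from KPCY mice. Among their engineered alleles is a Cre-activated Trp53 allele with the R172H change, which Pdx1-Cre, driven by a promoter of the pancreatic lineage, switches on, and the Rosa26 locus carries a YFP reporter. The samples' genotype label reads WT, although the clone holds engineered alleles.

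A basement membrane is a thin sheet of matrix that epithelial cells lay down beneath themselves. Laminins are trimers of an α, a β and a γ chain that bind integrins and dystroglycan on the cell and polymerise into a first network. Collagen IV forms a second, covalently crosslinked network, and nidogen and the heparan sulfate proteoglycan perlecan connect the networks and hold growth factors. Pancreatic ductal cells and the tumours that arise from them make laminins, collagen IV and perlecan of their own, alongside those made by stroma. The trimers of α5 with β1 or β2 and γ1 chains are the general epithelial laminins, and a trimer that holds the α3 and β3 chains anchors epithelia through hemidesmosomes.

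Promoter sequence is shown for the 2 genes that passed the test against PBS, Hspg2 and Lama5, and for the collagen IV pair, which is transcribed head to head and whose levels ran parallel. Each sequence is the RefSeq window of 300 bases from 250 before to 50 after the gene start in build GRCm38.p6, written 5′ to 3′ on the gene's own strand. Capitals mark every match, on either strand, to the GC box GGGCGG, which transcription factors of the SP family bind, or to the CCAAT box. The Hspg2 window is chr4:137468553-137468852 on the plus strand. The Lama5 window is chr2:180225810-180226109 on the minus strand. The Col4a1 window is chr8:11312777-11313076 on the minus strand, and the Col4a2 window is chr8:11312555-11312854 on the plus strand.
Hspg2: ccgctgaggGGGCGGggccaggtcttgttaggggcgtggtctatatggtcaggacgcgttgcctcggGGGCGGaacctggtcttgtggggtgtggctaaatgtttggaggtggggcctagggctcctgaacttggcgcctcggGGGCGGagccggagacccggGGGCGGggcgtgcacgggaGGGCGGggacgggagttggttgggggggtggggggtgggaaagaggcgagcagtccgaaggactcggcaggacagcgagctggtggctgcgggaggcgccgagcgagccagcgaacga
Lama5: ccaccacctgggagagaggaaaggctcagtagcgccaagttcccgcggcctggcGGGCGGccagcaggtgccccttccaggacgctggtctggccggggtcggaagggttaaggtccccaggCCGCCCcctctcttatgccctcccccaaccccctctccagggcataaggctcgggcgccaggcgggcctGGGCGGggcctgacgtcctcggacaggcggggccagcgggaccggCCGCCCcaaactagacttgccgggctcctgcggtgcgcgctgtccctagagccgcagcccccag
Col4a1: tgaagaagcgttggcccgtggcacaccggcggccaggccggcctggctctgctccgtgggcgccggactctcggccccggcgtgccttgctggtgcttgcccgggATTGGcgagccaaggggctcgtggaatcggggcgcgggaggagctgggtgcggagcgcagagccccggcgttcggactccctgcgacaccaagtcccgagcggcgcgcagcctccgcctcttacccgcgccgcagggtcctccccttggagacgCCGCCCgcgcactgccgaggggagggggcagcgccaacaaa
Col4a2: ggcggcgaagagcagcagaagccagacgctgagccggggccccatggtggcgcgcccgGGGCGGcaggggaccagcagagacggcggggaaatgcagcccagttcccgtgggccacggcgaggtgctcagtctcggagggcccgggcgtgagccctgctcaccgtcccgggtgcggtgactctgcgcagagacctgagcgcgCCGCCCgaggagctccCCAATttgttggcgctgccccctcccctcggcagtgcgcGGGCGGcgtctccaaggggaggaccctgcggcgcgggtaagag

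The starts of Col4a1 and Col4a2 lay 21 bases apart on opposite strands, so that their windows had 78 bases in common, which read as reverse complements in the lines above. The Hspg2 window held 5 GC boxes and no CCAAT box, the Lama5 window 4 GC boxes and no CCAAT box, the Col4a2 window 3 GC boxes and 1 CCAAT box, and the Col4a1 window 1 of each. Of 32851 promoter windows in the RefSeq table, 35.7% held a GC box and 37.4% a CCAAT box. A RefSeq window was found for 7 of the 9 genes. The Lamb1 window held 2 GC boxes and 1 CCAAT box, while the window of Lamb2 and both windows of Lamb3 held neither. The GC content was 70.3% in the Hspg2 window, 72.7% for Lama5, 74.0% for Col4a1, 73.7% for Col4a2, 63.7% for Lamb1, 59.3% for both windows of Lamb3 and 44.0% for Lamb2, against a median of 52.7% over all windows. Searches on both strands found no TATA box (TATAAA; 13.6% of all windows), no AP-1 site (TGANTCA; 7.81%) and no interferon-stimulated response element (3.44%) in any window of the 7 genes, and 1 interferon-gamma-activated site (TTCNNNGAA; 8.3% of all windows) in that of Lamb2. A match is a match of letters only, and the data hold no measurement of binding at these windows.

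Total gene counts lay between 34385326 and 52451398 per library. Values are TMM-scaled CPM (counts-per-million after a correction for library composition), and differences are log2 fold changes with their standard error (SE) from edgeR's quasi-likelihood test over all 8 libraries. A gene was called at a Benjamini-Hochberg adjusted p under 0.05 over all genes tested. No label says that the libraries of a group are separate cultures, so the p-values reflect how these libraries differ, perhaps for technical reasons. The smallest p that an exact two-sided permutation of 2 libraries against 2 can give is 0.333. The 10 ductal and epithelial markers that fit the label summed to 8314 to 11161 CPM, with Krt8 alone at 2045 to 2681 CPM. Nearly all of the sum came from the keratin genes and Cdh1. Other markers of that list were low, with Epcam at 6.44 to 29.9 CPM, Sox9 at 3.82 to 9.11 CPM, Cldn4 at 0.023 to 2.04 CPM and Cldn7 at 0.0912 to 1.12 CPM. A list of 9 fibroblast and mural cell markers, cells that also make these matrix genes, summed to between 6.29 and 10.5 CPM with DNase-treated ATEVs, 2.97 and 7.23 CPM with ATEVs, 5.36 and 9.48 CPM with NTEVs, against 3.46 and 5.17 CPM with PBS, with Dcn and Lum at 0 in every library. The 9 T cell markers summed to at most 6.51 CPM in any library, nearly all of it Lck, with Cd2 and Cd8a at 0 in every library, the 6 myeloid markers to at most 6.0 CPM with Adgre1 at 0, and the 7 endothelial markers to at most 1.03 CPM. In bulk RNA, fewer cells of a type and less RNA per cell cannot be told apart.

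As a group the 9 genes took 0.399% and 0.490% of all counts with DNase-treated ATEVs, 0.310% and 0.437% with ATEVs, 0.474% and 0.592% with NTEVs, against 0.304% and 0.293% with PBS. The NTEV libraries stood highest apart from the overlap of the lower one with the upper DNase-treated ATEV library, and every EV library lay above both PBS libraries. Of the 9 genes, edgeR called 1 with DNase-treated ATEVs against PBS, 0 with ATEVs, 1 with NTEVs and 2 in the mean of the 3 EV groups, each of them higher. Over all genes tested, edgeR's quasi-likelihood test called 3.01% with DNase-treated ATEVs, 5.19% with ATEVs, 1.11% with NTEVs and 6.36% for the mean of the EV groups. Of the genes tested, 2.16%, 3.52%, 0.704% and 3.37% were called higher in these 4 comparisons. With ATEVs, where 0 were called, 3 had an unadjusted p under 0.05 (Hspg2 and Lama5 higher, Lamb3 lower). DESeq2 called 1 of the 9 there, Lamb3, and 1476 of all genes. Counts at an unadjusted p under 0.05, here and below, have no share of all genes beside them, so they do not set these genes apart. The median log2 fold change over the 9 genes was 0.24 with DNase-treated ATEVs, 0.25 with ATEVs, 0.59 with NTEVs and 0.31 for the mean of the EV groups, beside medians between -0.019 and 0 over all genes tested in each. These 4 comparisons share the PBS libraries.

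**Figure D1:**
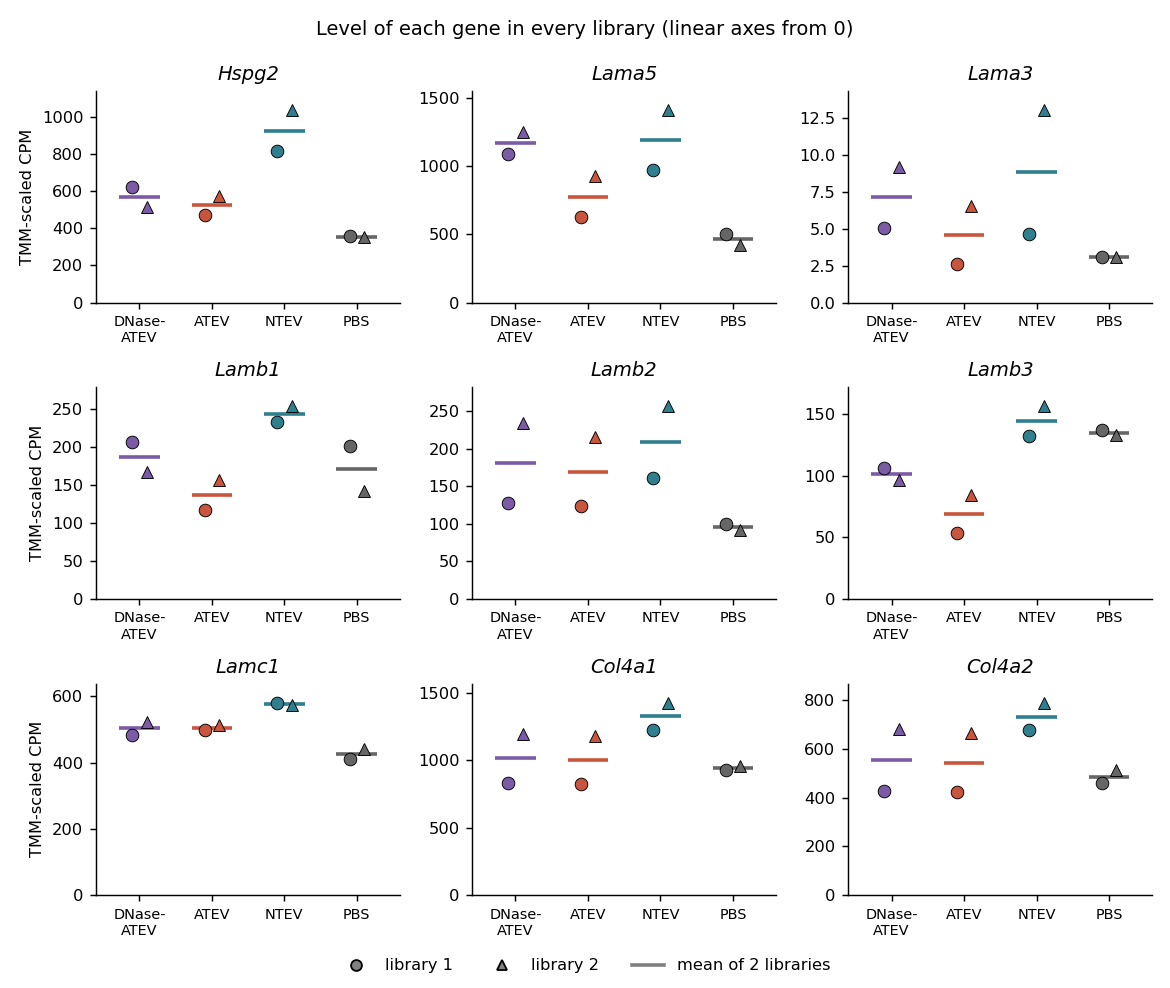
Level of each of the 9 genes in every library, in TMM-scaled CPM on linear axes that start at 0, with circles for library 1, triangles for library 2 and a bar at the mean of the 2 libraries of a group. Hspg2, Lama5, Lamb2 and Lamc1 lie above both PBS libraries in all 6 EV libraries, and Lamb3 lies below them in the DNase-treated ATEV and ATEV libraries.

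Perlecan, the proteoglycan whose heparan sulfate chains bind growth factors, rose with NTEVs. Hspg2 had 623 and 515 CPM with DNase-treated ATEVs, 473 and 576 CPM with ATEVs, 817 and 1039 CPM with NTEVs, against 359 and 351 CPM with PBS. All 6 EV libraries lay above both PBS libraries, the NTEV libraries lay above all others, and the DNase-treated ATEV and ATEV libraries overlapped. The mean was 928 ± 157 CPM with NTEVs and 355 ± 5.26 CPM with PBS (SD, n = 2 each), a log2 fold change of 1.39 ± 0.18 (SE), or 2.61-fold, with an adjusted p of 0.0244. In the mean of the 3 EV groups the log2 fold change against PBS was 0.88 ± 0.153 (SE), with an adjusted p of 0.0243. Hspg2 did not pass the edgeR test with DNase-treated ATEVs (log2 fold change 0.68 ± 0.178, adjusted p = 0.086) or with ATEVs (0.56 ± 0.178, adjusted p = 0.126). DESeq2 called it with DNase-treated ATEVs, where it called 1504 of all genes, but not with ATEVs. The NTEV call depended on having both libraries of each group, since leaving out any 1 of the 4 gave adjusted p-values from 0.0511 to 0.259. It was also lost when transcript length was used as an offset (log2 fold change 0.94, adjusted p = 0.0861) and when only protein-coding genes were tested (adjusted p = 0.115). The call for the mean of the EV groups was lost with a length offset (log2 fold change 0.63, edgeR adjusted p = 0.0601) and with a GC offset (0.55, edgeR adjusted p = 0.0778). It was also lost without PBS library 1 (log2 fold change 0.88) or PBS library 2 (0.86).

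The α5 chain, the α subunit of the general epithelial laminins, rose with DNase-treated ATEVs and in the mean of the EV groups. Lama5 had 1085 and 1247 CPM with DNase-treated ATEVs, 627 and 925 CPM with ATEVs, 968 and 1408 CPM with NTEVs, against 501 and 425 CPM with PBS. Every EV library was above both PBS libraries, the ATEV libraries were below those of the other 2 EV groups, and DNase-treated ATEV and NTEV libraries overlapped. With DNase-treated ATEVs the log2 fold change against PBS was 1.33 ± 0.251 (SE), 2.52-fold, with an adjusted p of 0.0444. With NTEVs it was of much the same size, 1.36 ± 0.251, but its adjusted p was 0.0633, and with ATEVs it was 0.75 ± 0.248 with an adjusted p of 0.141. In the mean of the 3 EV groups it was 1.15 ± 0.217 with an adjusted p of 0.0299. Leaving out any 1 of the DNase-treated ATEV or PBS libraries ended the call with DNase-treated ATEVs (adjusted p from 0.101 to 0.27), as did the length offset (0.0558), the GC offset (0.0617) and testing protein-coding genes alone (0.078). The call for the mean of the EV groups was lost with a GC offset (edgeR adjusted p = 0.0519) and with protein-coding genes alone. It was also lost without either PBS library (log2 fold changes 1.26 and 1.03) or either DNase-treated ATEV library (1.21 and 1.14). DESeq2 called Lama5 with NTEVs, where it called 770 of all genes, as well as with DNase-treated ATEVs, where it called 1504.

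The γ1 chain is the partner that most laminin trimers share, and its levels in the 8 libraries lay within a narrow range. Lamc1 had 483 and 523 CPM with DNase-treated ATEVs, 497 and 513 CPM with ATEVs, 580 and 574 CPM with NTEVs, against 410 and 440 CPM with PBS. The NTEV libraries were highest, the PBS libraries lowest, and the other 2 groups overlapped between them. The log2 fold changes against PBS were 0.24 ± 0.118 with DNase-treated ATEVs, 0.25 ± 0.118 with ATEVs and 0.44 ± 0.118 with NTEVs, with edgeR adjusted p-values of 0.251, 0.279 and 0.132, so that no difference passed the edgeR test. DESeq2 called Lamc1 with NTEVs, where it called 770 of all genes. Its biological coefficient of variation, 0.122, was the lowest of the 9 genes.

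The β2 chain can stand in for β1 in laminin trimers. Lamb2 had 128 and 234 CPM with DNase-treated ATEVs, 123 and 215 CPM with ATEVs, 161 and 256 CPM with NTEVs, against 99.8 and 91.5 CPM with PBS. All EV libraries lay above both PBS libraries, the 3 EV groups overlapped one another, and library 2 was well above library 1 in each of them. Its log2 fold changes against PBS were 0.92 ± 0.377, 0.82 ± 0.376 and 1.12 ± 0.378 with DNase-treated ATEVs, ATEVs and NTEVs, and none passed the test in edgeR (adjusted p = 0.19, 0.261 and 0.191). For the β1 chain, the usual partner of α5 and γ1, both NTEV libraries lay above both PBS libraries, and the libraries of each ATEV preparation overlapped those of PBS. Lamb1 had 206 and 166 CPM with DNase-treated ATEVs, 116 and 156 CPM with ATEVs, 232 and 253 CPM with NTEVs, against 201 and 141 CPM with PBS. The NTEV libraries were the highest, and the ATEV and DNase-treated ATEV libraries each overlapped those with PBS. Its log2 fold changes, 0.12 ± 0.221, -0.33 ± 0.222 and 0.50 ± 0.222 in the same order, did not pass the edgeR test (adjusted p = 0.748, 0.426 and 0.27).

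The β3 chain, which is known only from the hemidesmosome laminin, was lower with ATEVs, short of the threshold. Lamb3 had 107 and 96.7 CPM with DNase-treated ATEVs, 53.8 and 84.4 CPM with ATEVs, 132 and 156 CPM with NTEVs, against 137 and 133 CPM with PBS. The ATEV libraries were the lowest, the DNase-treated ATEV libraries lay between them and the PBS libraries, and NTEV and PBS libraries overlapped. The log2 fold change with ATEVs against PBS, -0.97 ± 0.216, just missed the threshold with an edgeR adjusted p of 0.0506. It passed with DESeq2 (0.0072), with GC content as an offset (edgeR adjusted p = 0.0386), with no low-count filter and with a replicate block. It did not pass with a length offset (edgeR adjusted p = 0.0559), other size factors, coding genes alone or a fit of only these 2 groups. Its log2 fold change was -0.95 without PBS library 1 and -0.99 without PBS library 2. It was -0.63 without ATEV library 1 and -1.32 without ATEV library 2. With DNase-treated ATEVs the log2 fold change was -0.41 ± 0.214 (adjusted p = 0.278) and with NTEVs 0.10 ± 0.213 (adjusted p = 0.799).

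The transcript of the α3 chain, the partner of β3 in that trimer, was scarce. Lama3 had 5.03 and 9.21 CPM with DNase-treated ATEVs, 2.62 and 6.57 CPM with ATEVs, 4.61 and 13.0 CPM with NTEVs, against 3.09 and 3.07 CPM with PBS. The ATEV libraries lay on both sides of the PBS libraries, and the other EV libraries lay above them with wide gaps between library 1 and library 2. None of its differences passed the test, and their standard errors were the widest of the 9 genes, with log2 fold changes of 1.21 ± 0.607, 0.58 ± 0.605 and 1.52 ± 0.61 and edgeR adjusted p-values of 0.263, 0.613 and 0.244 with DNase-treated ATEVs, ATEVs and NTEVs. Its level ranked at percentile 21.5 of the tested coding genes, where the other 8 lay between percentile 82.0 and 99.5. A predicted antisense gene overlaps 197 exon bases of Lama3, and since the strand setting of the counting is not given, its few reads and those of Lama3 cannot be told apart there.

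The collagen IV chains, which assemble as a pair of α1 chains with a single α2 chain, ran parallel over the libraries and did not pass the test. Col4a1 had 834 and 1193 CPM with DNase-treated ATEVs, 823 and 1179 CPM with ATEVs, 1224 and 1426 CPM with NTEVs, against 927 and 961 CPM with PBS. Col4a2 had 429 and 681 CPM with DNase-treated ATEVs, 424 and 665 CPM with ATEVs, 677 and 790 CPM with NTEVs, against 462 and 512 CPM with PBS. For both genes the NTEV libraries lay above the PBS libraries, while library 1 of the other 2 EV groups lay below the PBS libraries and library 2 above them. No difference passed the edgeR test: with NTEVs the log2 fold changes were 0.49 ± 0.231 for Col4a1 and 0.59 ± 0.277 for Col4a2 (adjusted p = 0.291 and 0.29), and with DNase-treated ATEVs and ATEVs they were between 0.085 and 0.19. Per length of transcript, the ratio of Col4a1 to Col4a2 was 1.89 and 1.71 with DNase-treated ATEVs, 1.89 and 1.73 with ATEVs, 1.76 and 1.76 with NTEVs, against 1.96 and 1.83 with PBS. The NTEV ratios lay just below both PBS ratios, and those of the other 2 EV groups overlapped them.

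**Figure D2:**
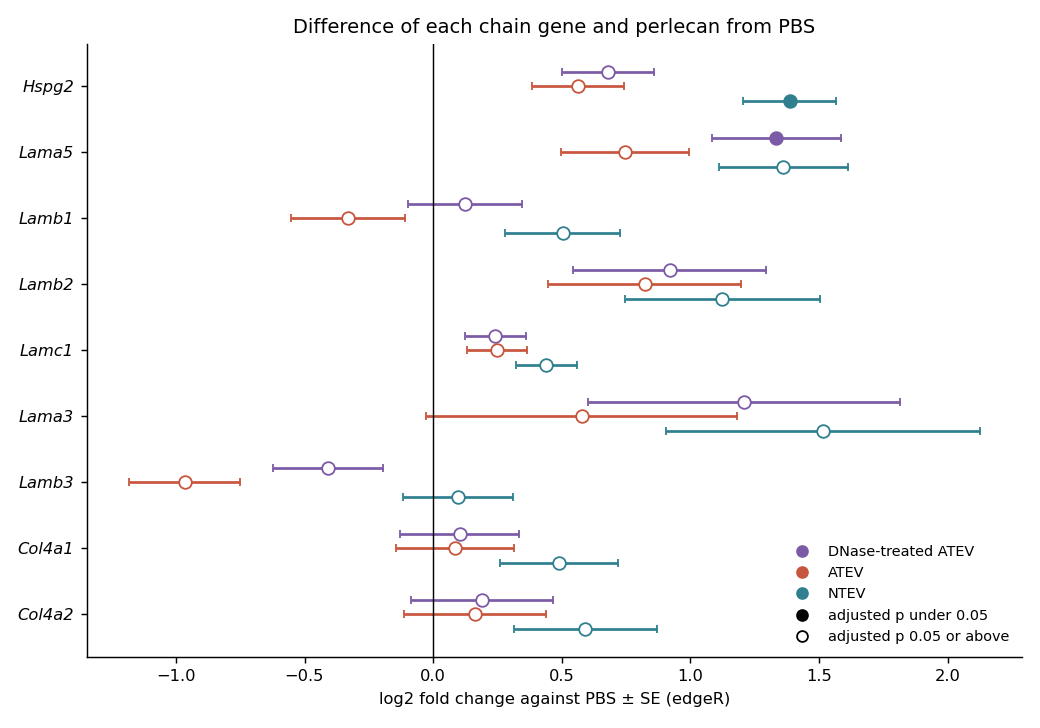
Log2 fold change of each of the 9 genes against PBS with DNase-treated ATEVs, ATEVs and NTEVs, with bars for the standard error from edgeR and filled points for an adjusted p under 0.05. The filled points are Hspg2 with NTEVs (1.39) and Lama5 with DNase-treated ATEVs (1.33), and the open point farthest to the left is Lamb3 with ATEVs (-0.97).

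Counted by libraries, both libraries of a group lay above both PBS libraries for 5 of the 9 genes with DNase-treated ATEVs (Hspg2, Lama3, Lama5, Lamb2, Lamc1), 4 with ATEVs (Hspg2, Lama5, Lamb2, Lamc1) and 8 with NTEVs (all but Lamb3). The shares of all tested genes that lay so were 29.7%, 25.2% and 28.6%. Lamb3 was the 1 gene of the 9 whose libraries lay below, with DNase-treated ATEVs and with ATEVs, where 30.9% and 27.3% of all genes did. For Hspg2, Lama5, Lamb2 and Lamc1 all 6 EV libraries lay above both PBS libraries, as for 13.9% of all genes.

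The make-up of the laminin pool was compared per length of transcript, in CPM per kb of the longest coding transcript. Among the β chains, Lamb3 made up 27.3% and 22% with DNase-treated ATEVs, 20.9% and 21% with ATEVs, 28.4% and 26.5% with NTEVs, against 34.9% and 40.2% with PBS. Its share was lower in all 6 EV libraries than in either PBS library, and lowest with ATEVs. Lamb2 made up 28.4% and 46.0% with DNase-treated ATEVs, 41.2% and 46.4% with ATEVs, 29.8% and 37.5% with NTEVs, against 22% and 23.9% with PBS, so that its share was higher in every EV library than in the PBS libraries. The share of Lamb1, between 31.9% and 44.4%, overlapped between each EV group and PBS.

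Among the α chains, Lama5 held 99% to 99.5% of the summed level in every library. The level of Lama5 relative to Lamc1, per length, was 1.5 and 1.6 with DNase-treated ATEVs, 0.844 and 1.21 with ATEVs, 1.12 and 1.64 with NTEVs, against 0.817 and 0.646 with PBS. It was above both PBS ratios in all 6 EV libraries. These values come from 2 libraries a group and carry no test, and the length of Lama3 is that of its long isoform.

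**Figure D3:**
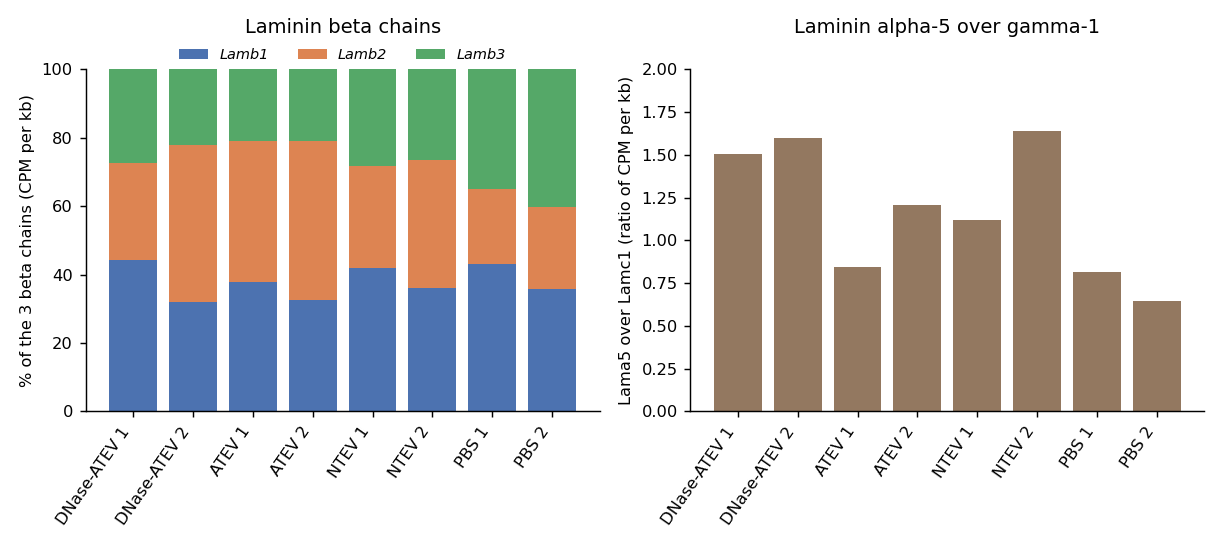
Left, the share of each laminin β chain gene in the sum of Lamb1, Lamb2 and Lamb3 (percent, from CPM per kb) in every library. Right, the ratio of Lama5 to Lamc1, both in CPM per kb, on an axis that starts at 0. Lamb3 is at or below 28.4% in the EV libraries and at 34.9% and 40.2% in the PBS libraries, and the ratio of Lama5 to Lamc1 is at or above 0.844 in the EV libraries and at 0.817 and 0.646 in the PBS libraries.

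By level per length, Col4a1 was the most abundant of the 9 genes in every group, at 153 CPM per kb with DNase-treated ATEVs, 151 with ATEVs, 200 with NTEVs and 143 with PBS. Lama5 came next with DNase-treated ATEVs at 102 CPM per kb, above Col4a2 at 86.1, while with PBS the order was the reverse, with Lama5 at 40.6 CPM per kb and Col4a2 at 75.5. Hspg2 stood at 40.1, 36.9, 65.4 and 25 CPM per kb with DNase-treated ATEVs, ATEVs, NTEVs and PBS. Lama3 was below 1 CPM per kb in each group.

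The EV preparations were also compared with each other, which asks whether the activation state of the donor T cells or the DNase step changed the response. NTEVs were given at 30 µg/mL and both ATEV preparations at 15 µg/mL, amounts that the labels tie to an equal EV-DNA dose for untreated ATEVs and NTEVs. In the comparisons with NTEVs the source of the vesicles and their amount cannot be told apart. With ATEVs against NTEVs all 9 log2 fold changes were negative, with a median of -0.61 beside 0.0095 over all genes tested, but 0 of the 9 were called by edgeR, where 1.19% of all genes were. Long transcripts leaned the same way: the 710 coding genes of at least 8 kb had a median of -0.20. Spearman's rho between transcript length and log2 fold change was -0.179 over the coding genes. Of the 9, 4 had an unadjusted p under 0.05 (Hspg2, Lama5, Lamb1, Lamb3). DESeq2 called 2 of the 9, Hspg2 and Lamb3, both lower, and 468 of all genes, where edgeR called 181 of all genes. For Lamb3 the log2 fold change was -1.06 ± 0.216 with an edgeR adjusted p of 0.0912, and for Hspg2 it was -0.82 ± 0.178 with an adjusted p of 0.113. With transcript length as an offset these were -1.03 for Lamb3 (edgeR adjusted p = 0.12) and -0.48 for Hspg2 (edgeR adjusted p = 0.546). Both ATEV libraries lay below both NTEV libraries for 7 of the 9 genes, all but Lama3 and Lamb2, where 16.3% of all genes lay so. For Lama3 and Lamb2 the libraries of the 2 groups overlapped.

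With DNase-treated ATEVs against ATEVs, 8 of the 9 log2 fold changes were positive, and 0 were called by edgeR or by DESeq2, where edgeR called 0.665% of all genes. Unadjusted p-values were under 0.05 for 2 genes, Lama5 (log2 fold change 0.59 ± 0.248, adjusted p = 0.437) and Lamb3 (0.56 ± 0.214, adjusted p = 0.39). For these and Lamb1 (0.45 ± 0.222), both DNase-treated ATEV libraries lay above both ATEV libraries, as for 19.4% of all genes. With DNase-treated ATEVs against NTEVs all 9 were negative and 0 were called by edgeR or by DESeq2, where edgeR called 0.0526% of all genes. The 710 long coding genes had a median of -0.23 there, and rho with length was -0.311. Both comparisons with NTEVs share the NTEV libraries. Of the 9, the 2 with an unadjusted p under 0.05 were Hspg2 (log2 fold change -0.71 ± 0.178, adjusted p = 0.38) and Lamb3 (-0.51 ± 0.214, adjusted p = 0.496). Both DNase-treated ATEV libraries lay below both NTEV libraries for 5 of the 9, Hspg2, Lamb1, Lamb3, Lamc1 and Col4a1, where 18.3% of all genes lay so. A miss of the threshold at 2 libraries a group does not show that the preparations act alike on these genes.

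In each EV group the libraries also differed along a common axis. Library 2 was above library 1 in all 3 EV groups for 5 of the 9 genes (Lama5, Lama3, Col4a1, Col4a2 and Lamb2) and below it in all 3 for 0, where 30% of all tested genes were above and 32.2% below. The ratio of library 2 to library 1 for Lamb2 was 1.82 with DNase-treated ATEVs, 1.75 with ATEVs, 1.59 with NTEVs and 0.916 with PBS. For Lama3 it was 1.83, 2.51, 2.83 and 0.994 in that order, and in each EV group its libraries lay farther apart than the group's mean and the PBS mean. The labels do not say what the library numbers stand for, and the part of this axis in the group differences was not tested.

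The 9 genes have long and mostly GC-rich transcripts, and over all coding genes GC content went with the fold change in each comparison with PBS, while length did so mainly with NTEVs. The transcript of Hspg2 has 14187 bases and 60.9% GC, percentiles 99.5 and 97.0 of the tested coding genes, and that of Lama5 has 11388 bases and 59.9% GC. The shortest, Lamb3, has 4867 bases and 55.6% GC. Across 12732 coding genes, which are not independent replicates, Spearman's rho between GC content and log2 fold change against PBS was 0.310 with DNase-treated ATEVs, 0.377 with ATEVs and 0.381 with NTEVs, and rho with length was -0.037, 0.065 and 0.170. The 131 coding genes of at least 5 kb and 58% GC, limits chosen after the data were seen, had median log2 fold changes of 0.47, 0.47 and 0.63 in the same comparisons, and 12, 9 and 10 of them were called higher and 0 lower. The 131 include Hspg2, Lama5, Lamb2 and Col4a2, so these counts hold the calls of Lama5 with DNase-treated ATEVs and of Hspg2 with NTEVs. With a GC offset the log2 fold change with NTEVs was 1.05 for Hspg2 (adjusted p = 0.042) and 1.06 for Lama5 (adjusted p = 0.0942), and with a length offset it was 0.94 and 1.01. With a GC offset in the mean of the EV groups, Hspg2 stood at 0.55 (adjusted p = 0.0778) and Lama5 at 0.86 (adjusted p = 0.0519).

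**Figure D4:**
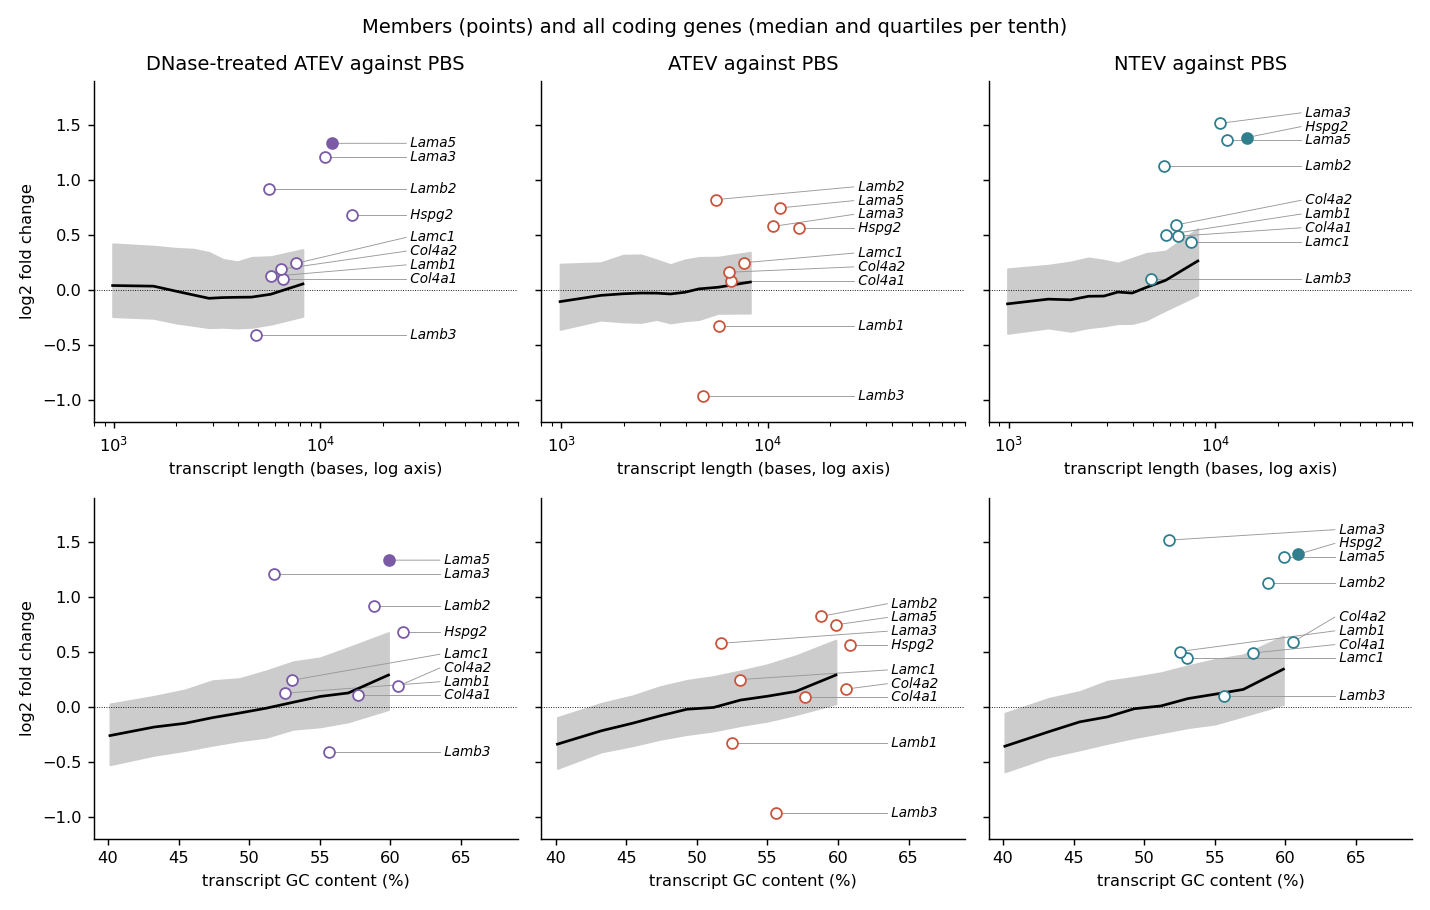
Log2 fold change against PBS of the 9 genes (points, filled at an adjusted p under 0.05) by transcript length (top, log axis, bases) and GC content (bottom, percent), with DNase-treated ATEVs, ATEVs and NTEVs from left to right. The black line and grey band are the median and quartiles of coding genes in 10 equal groups by length or GC content. Lama5 and Hspg2 lie at the long and GC-rich end, above the upper quartile with NTEVs, and Lamb3 lies below the lower quartile with the 2 ATEV preparations.

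Likeness of pattern was measured as the root-mean-square difference of centred log2 CPM over the 8 libraries, among 10689 genes. The nearest gene to Col4a2 was Col4a1, at 0.067, and Col4a1 had Col4a2 in second place after Ank3 at 0.066. No other pair of the 9 came closer than 0.193. Hspg2 was nearest to Syne2 (0.132), Hectd4 (0.150) and Akap13 (0.160), and its nearest among the 9 was Lama5 at 0.318. Lama5 was nearest to Stard9 (0.133), Lamb2 to Ngef (0.067), Lamb3 to Gcnt3 (0.067), Lamb1 to Ak5 (0.062) and Lamc1 to Lcor (0.038). Col4a1 and Col4a2 overlap by 22 exon bases on opposite strands, under 1% of either transcript.

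Genes that work with these chains were read from lists of the rest of the pathway. Beside the counts below, edgeR called 3.01% of all genes with DNase-treated ATEVs, 5.19% with ATEVs and 1.11% with NTEVs against PBS. With ATEVs against NTEVs it called 1.19% of all genes. DESeq2 called 1504, 1476 and 770 of all genes with DNase-treated ATEVs, ATEVs and NTEVs against PBS. Among the other basement membrane components, 16 were tested. Of these 1 rose under DNase-treated ATEVs, 1 rose and 1 fell under ATEVs, and 0 were called under NTEVs by edgeR, where 5 had an unadjusted p under 0.05 and DESeq2 called 0. The one that rose was the netrin Ntn1, which had a low level of 2.66 and 2.14 CPM with DNase-treated ATEVs, 1.01 and 1.26 CPM with ATEVs, 0.410 and 1.05 CPM with NTEVs, against 0.194 and 0.243 CPM with PBS (log2 fold changes against PBS 3.46, 2.38 and 1.72, edgeR adjusted p = 0.0257, 0.0491 and 0.166). The one that fell was Npnt, the integrin ligand nephronectin, at 357 and 244 CPM with DNase-treated ATEVs, 214 and 200 CPM with ATEVs, 449 and 350 CPM with NTEVs, against 493 and 497 CPM with PBS, with a log2 fold change of -1.26 with ATEVs and an adjusted p of 0.0209. Each of these calls was lost on leaving out any 1 of its 4 libraries, with edgeR adjusted p-values from 0.0667 to 0.135 for Npnt and from 0.0864 to 0.257 for Ntn1. Nid1, the nidogen that bridges laminin to collagen IV, and Agrn, the heparan sulfate proteoglycan agrin, were not called by edgeR in any comparison. Agrn had 552 and 552 CPM with DNase-treated ATEVs, 255 and 442 with ATEVs, 419 and 656 with NTEVs, against 303 and 278 with PBS. DESeq2 called Agrn higher with DNase-treated ATEVs against PBS, where it called 1504 of all genes. All 4 other collagen IV chain genes were tested, and Col4a4 fell with ATEVs against PBS at a level below 3 CPM in every library (log2 fold change -2.17, adjusted p = 0.0491), a call lost without either PBS library (0.237 and 0.138) or ATEV library 1 (0.131). Col4a4 also fell with ATEVs against NTEVs, at 0.184 and 0.479 CPM with ATEVs against 2.68 and 2.84 CPM with NTEVs (log2 fold change -3.04, adjusted p = 0.0348). That call was lost without either NTEV library (0.167 and 0.136) or ATEV library 1 (0.135), and in a fit of only these 2 groups (0.187).

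Of 16 tested receptors and anchors, against PBS 1 rose under DNase-treated ATEVs, 0 under ATEVs and 2 under NTEVs, and 0 fell, where with ATEVs 6 had an unadjusted p under 0.05 and DESeq2 called 3. Of all genes, edgeR called 3.01% with DNase-treated ATEVs, 5.19% with ATEVs and 1.11% with NTEVs, and DESeq2 called 1476 genes with ATEVs. The receptors and anchors that rose by edgeR were genes of the plakins that link hemidesmosomes to the cytoskeleton. Dst, which encodes dystonin, had 378 and 341 CPM with DNase-treated ATEVs, 242 and 274 CPM with ATEVs, 410 and 493 CPM with NTEVs, against 189 and 205 CPM with PBS, with every EV library above both PBS libraries. It rose with DNase-treated ATEVs (log2 fold change 0.87, adjusted p = 0.0333) and with NTEVs (1.20, adjusted p = 0.0208). Plec, which encodes plectin, rose with NTEVs (1.04, adjusted p = 0.0442). Both have transcripts longer than that of Hspg2, and each of these calls was lost with a length offset (log2 fold changes from 0.55 to 0.56) and on leaving out any 1 of its 4 libraries, with adjusted p-values from 0.0512 to 0.258 for Dst and from 0.143 to 0.302 for Plec. Itgb4, the integrin β chain of hemidesmosomes, had 91.5 and 90.5 CPM with DNase-treated ATEVs, 54.5 and 78.4 CPM with ATEVs, 150 and 184 CPM with NTEVs, against 108 and 132 CPM with PBS, and fell with ATEVs against NTEVs (log2 fold change -1.33, adjusted p = 0.0334), a call lost without either NTEV library (0.106 and 0.176) or ATEV library 1 (0.135). The laminin-binding integrin genes Itga3, Itga6 and Itgb1 and the dystroglycan gene Dag1 were not called by edgeR in any comparison. Of 11 tested genes for chain folding, secretion and crosslinking and of 16 for heparan sulfate synthesis and trimming, 0 were called in any of the 7 comparisons by edgeR. In a comparison, 0 to 3 genes of the folding list and 0 to 6 of the heparan sulfate list had an unadjusted p under 0.05, and DESeq2 called 0 of the folding list and at most 4 of the heparan sulfate list. The 4 were called with ATEVs against PBS, where DESeq2 called 1476 of all genes.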

How the data were processed

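RNA-seq libraries were made with a stranded mRNA kit from column-purified total RNA, per the labels' protocols, which give RPMI as the growth medium and DMEM as the medium during exposure. Cufflinks 2.1.1, TopHat, TopHat2 2.0.11, bcl2fastq 2.19 and build mm9 stand in the submitters' processing notes with no role. What counted the reads, with which annotation and strand setting, is not given in the sources used here. Analysed were the whole-number gene counts as deposited, keyed by Ensembl identifiers, of which 42250 of 42687 matched a symbol in GENCODE M21. That annotation also gave the length and GC content of the longest coding transcript, for 99.7% of tested genes, and no coordinates. Promoter sequences are from RefSeq (GRCm38.p6).

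Groups came from the labels. Libraries of a group differed by more than sampling noise (chi-square per gene of 39.0 for PBS to 145 for ATEV). That does not show whether they are separate cultures. Each library was counted on its own. Counts were filtered by expression, scaled by TMM and fitted in edgeR 4.0.16 (R 4.3.3, limma 3.58.1) with a mean per group over 8 libraries, 4 residual degrees of freedom and a common biological coefficient of variation of 0.226. The 7 comparisons were each EV group and their mean against PBS, and the EV groups against each other, with two-sided p-values adjusted over all genes. Alternatives were DESeq2 1.42.0 (an adjusted p given as NA stayed NA), other size factors, no filter, pairwise fits, coding genes only, length and GC offsets, a replicate block and leaving out each library. The fits were tested on simulated data. The 9 genes and the pathway and marker lists were chosen with earlier results of these data known. All 9 genes are named, with Nid1, Agrn, the main laminin receptors and up to 4 called members per list. Some genes that this rule takes are not reported here.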

Additional observations from a re-analysis of the deposited data

How the results depend on the processing

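No log2 fold change of the 9 genes that passed the test changed sign under any alternative, and other size factors (relative log expression, or none) left each count of called genes unchanged. DESeq2 called 1 of the 9 with ATEVs against PBS, 3 with NTEVs, 2 with DNase-treated ATEVs, 3 for the mean of the EV groups and 2 for ATEVs against NTEVs. With no filter on low counts edgeR called 2, 4, 3, 3 and 3 in the same order. Over all genes these methods also called more than the main fit, which called 788, 169, 458, 966 and 181 in that order. DESeq2 called 1476, 770, 1504, 2081 and 468 of all genes, and the fit with no filter 1454, 773, 1520, 2191 and 459. A fit of only the groups compared called 2 with NTEVs. Testing protein-coding genes alone called 0 with NTEVs, 0 with DNase-treated ATEVs and 1 for the mean of the EV groups. Of all coding genes that fit called only 1, 35 and 221 in the same order. A length offset gave the same counts for the 9, 0, 0 and 1, beside 102, 410 and 940 of all genes. A GC offset gave 1 with ATEVs, 0 with DNase-treated ATEVs and 0 for the mean of the EV groups, beside 616, 300 and 585 of all genes. Leaving out 1 library at a time gave 0 to 1 with ATEVs, 0 to 0 with NTEVs, 0 to 0 with DNase-treated ATEVs, 0 to 2 for the mean of the EV groups and 0 to 1 for ATEVs against NTEVs. The cause was not tested. The count for the mean of the EV groups was 0 without either PBS library.

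A replicate block, in which the library number enters as a term, called 1 of the 9 with ATEVs against PBS (Lamb3, adjusted p = 0.0346), 2 with NTEVs, 3 for the mean of the EV groups and 0 in each comparison between EV groups. Over all genes the block called 1182 with ATEVs, 330 with NTEVs and 1826 for the mean of the EV groups, more than the main fit in each. For the mean of the EV groups, DESeq2, the fit with no filter and the block each added Lamb2 to Hspg2 and Lama5. With a length offset the replicate block called 1 with ATEVs, 0 with NTEVs and 3 for the mean of the EV groups, and with a GC offset 1 with ATEVs and 1 for the mean of the EV groups. The labels do not tie equal numbers together. Deviations of equally numbered libraries correlated across genes at -0.180, -0.236 and -0.141 between PBS and the ATEV, NTEV and DNase-treated ATEV groups, and at 0.529, 0.552 and 0.485 among the EV groups. Since the labels give no pairing and the correlations with PBS were negative, the numbers were not taken as pairs. What equally numbered EV libraries share was not tested.

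Over all genes the number called also changed with the processing: with NTEVs against PBS it ran from 1 to 773 beside 169. It reached 1476 beside 788 with ATEVs, 1520 beside 458 with DNase-treated ATEVs and 2191 beside 966 for the mean of the EV groups. With coding genes alone the number was 371 with ATEVs, 35 with DNase-treated ATEVs and 221 for the mean of the EV groups. With ATEVs against NTEVs it ran from 51 to 468 beside 181, with DNase-treated ATEVs against ATEVs from 27 to 350 beside 101, and with DNase-treated ATEVs against NTEVs from 1 to 180 beside 8. Of the 9 genes Lama3 had the lowest level, at 2.62 to 13.0 CPM, and its differences had the widest standard errors.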
